A study of Rattus norvegicus with 15 samples.

Results

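The genes described are 9 transcription factors of vascular lineage and mesenchyme: the zinc finger factor Gata6, the MADS-box factors Mef2a, Mef2c and Mef2d, the homeodomain factors Meis1 and Prrx1, the basic helix-loop-helix factors Twist1 and Tcf21, and the forkhead factor Foxc2. They were matched by gene symbol and are 9 of the 32623 gene entries in the table. All 9 symbols were found once. They were measured by RNA-seq in 15 libraries of smooth muscle cells (SMC) cultured from the rat aorta. The control group held 4 libraries of unmodified SMC (cell line label WT) with no growth factor. A further 4 libraries came from the line labelled Myocd-LSD1, by its label a fusion of myocardin, the serum response factor coactivator of SMC, with the histone demethylase LSD1. The line named Myocd-LSD1NF also gave 4 libraries, and the sources leave the letters NF unexplained. The PDGF-BB group held 3 libraries of WT cells given platelet-derived growth factor BB, an SMC mitogen, for 24 h at 30 ng/ml, with 48 h of starvation first. Every group was starved for 72 h in all. The promoter driving each fusion and whether each line is 1 clone or a pool are not stated, and an effect of the fusion and a property of the line cannot be told apart. Nothing in the labels says that the libraries of a group are separate cultures. The p-values then cover the spread between these libraries, which may be technical.

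These factors set and hold mesodermal identity. MEF2 proteins bind an A/T-rich site and are kept inactive by class IIa histone deacetylases until calcium-dependent kinases and calcineurin signalling release them. In the mouse, MEF2C lies upstream of myocardin in the developing heart. GATA6 is the main GATA factor of vascular smooth muscle, and FOXC2 acts in the development of the aortic arch and lymphatic vessels. MEIS1 is a cofactor of PBX and HOX proteins. TWIST1 and PRRX1 maintain embryonic mesenchyme and are known as drivers of epithelial-mesenchymal transition (EMT), and TCF21 marks epicardial and fibroblast progenitors.

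The values are TPM, a measure of transcript abundance normalized for transcript length and to 1 total per library, so levels can be set side by side between genes but the depth behind a value is unknown and no counting interval can be given. A gene was tested when it reached 1 TPM in at least 3 libraries, which 12207 genes did. The test was limma on log2(TPM + 1) over all 15 libraries, and "called" means an adjusted p under 0.05 over those 12207 genes. Fold changes are given on this scale, on which the change of a gene of low level is understated. Of the 9 factors 8 were tested, and Tcf21 was not. The genes of the fusion's named parts were read as a check of the label. Myocd, the myocardin gene, stood at 0.15 to 0.56 TPM in the libraries labelled Myocd-LSD1 against 26.2 to 30.6 in control. That goes against the label if the fusion's reads count there. Kdm1a, which encodes LSD1, stood at 58.7 to 67.7 TPM in Myocd-LSD1 against 50.4 to 57.9 in control, without overlap. In Myocd-LSD1NF Myocd was at 18.3 to 49.6 TPM and Kdm1a at 49.1 to 61.9. Whether the table's entries cover the fusion transcript is not known, so directions in Myocd-LSD1 and Myocd-LSD1NF are those of the labelled lines. The smooth muscle label fitted the markers: Acta2, smooth muscle actin, stood at 9718 ± 772 TPM in control cells (SD, n = 4). It stood at 2077 ± 611 TPM in Myocd-LSD1 cells (n = 4), 9359 ± 3635 in Myocd-LSD1NF cells (n = 4) and 2554 ± 606 in PDGF-BB cells (n = 3). The summed TPM of 8 smooth muscle markers ran from 17623 to 21953 in control libraries, from 3446 to 6116 in Myocd-LSD1, from 9527 to 20494 in Myocd-LSD1NF and from 5334 to 7163 in PDGF-BB. Of these markers Des went the other way, at 3.71 to 7.08 TPM in Myocd-LSD1 against 0.47 to 1.67 in control. Endothelial markers summed to at most 6.88 TPM in any library, with Kdr, Cdh5, Vwf, Sox17 and Tie1 under 1 TPM everywhere. The sum of 8 epithelial and mesothelial markers was 34.5 to 56.1 TPM in control cells and 78.4 to 265 in Myocd-LSD1 cells, with Cdh1 and Krt18 under 1 TPM in all libraries. The sum was 32.09 to 57.85 TPM in Myocd-LSD1NF and 44.17 to 57.81 in PDGF-BB cells. Within that list the mesothelial marker Msln ran from 7.88 to 189 TPM in Myocd-LSD1 against 0.88 to 4.49 in control, Lrrn4 from 5.52 to 35.8 against 0.03 to 1.03, and the keratin gene Krt8 had means of 41.1 ± 14.7 against 19.2 ± 3.76 TPM. Krt8 was as high with PDGF-BB, at 40.4 ± 9.21 TPM, and Lrrn4 ran from 0.04 to 22.95 TPM in Myocd-LSD1NF. Upk3b, another mesothelial marker, ran from 2.94 to 23.6 TPM in Myocd-LSD1 against 14.9 to 32.1 in control. The epithelial marker Krt19 ran from 0.21 to 2.15 TPM in Myocd-LSD1 and was at most 0.07 in control. Epcam ran from 0.76 to 1.51 TPM with PDGF-BB and was at most 0.1 in control. The 6 leukocyte markers used summed to 39.2 to 49.7 TPM in control, 108 to 228 in Myocd-LSD1, 55.66 to 137.43 in Myocd-LSD1NF and 74.95 to 132.87 in PDGF-BB cells. Nearly all of that sum was Cd14, and Ptprc, Csf1r, Lyz2 and Cd3e stayed under 1 TPM. Cd68 ran from 1.17 to 1.62 TPM in Myocd-LSD1 against 0.14 to 0.64 in control. It ran from 0.17 to 0.49 TPM in Myocd-LSD1NF and from 0.8 to 0.93 in PDGF-BB cells. The 8 fibroblast markers summed to 278 to 342 TPM in control, 146 to 310 in Myocd-LSD1, 205 to 250 in Myocd-LSD1NF and 135 to 204 in PDGF-BB cells. Members of that list moved both ways in Myocd-LSD1. Mfap5 had a lower mean (7.09 against 119.5 TPM in control), as had Lum (1.095 against 21.96). Col14a1 had a higher mean (194.4 against 144.5 TPM), as had Pi16 (4.367 against 2.425). The part of these marker differences in the results was not tested. In such bulk samples fewer cells of a type and less RNA per cell cannot be told apart.

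In control SMC 8 of the 9 factors were detected, 6 of them with means of 37.0 to 72.3 TPM. Mef2a was highest at 72.3 ± 6.53 TPM (SD, n = 4), above 82.7% of the genes tested. Mef2d followed at 67.9 ± 7.57 TPM and Foxc2 at 67.2 ± 20.2 TPM, and the ranges of these 3 genes overlapped. Gata6 stood at 47.0 ± 3.95, Meis1 at 40.4 ± 2.58 and Prrx1 at 37.0 ± 8.02 TPM. Twist1 was far lower at 9.39 ± 1.89 TPM, and Mef2c lower again at 2.62 ± 1.05 TPM, above 12.8% of tested genes. Tcf21 was listed at 0. Among the factors of the control cells the span from Mef2a to Mef2c thus covered highly and barely expressed genes of a single family.

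**Figure D1:**
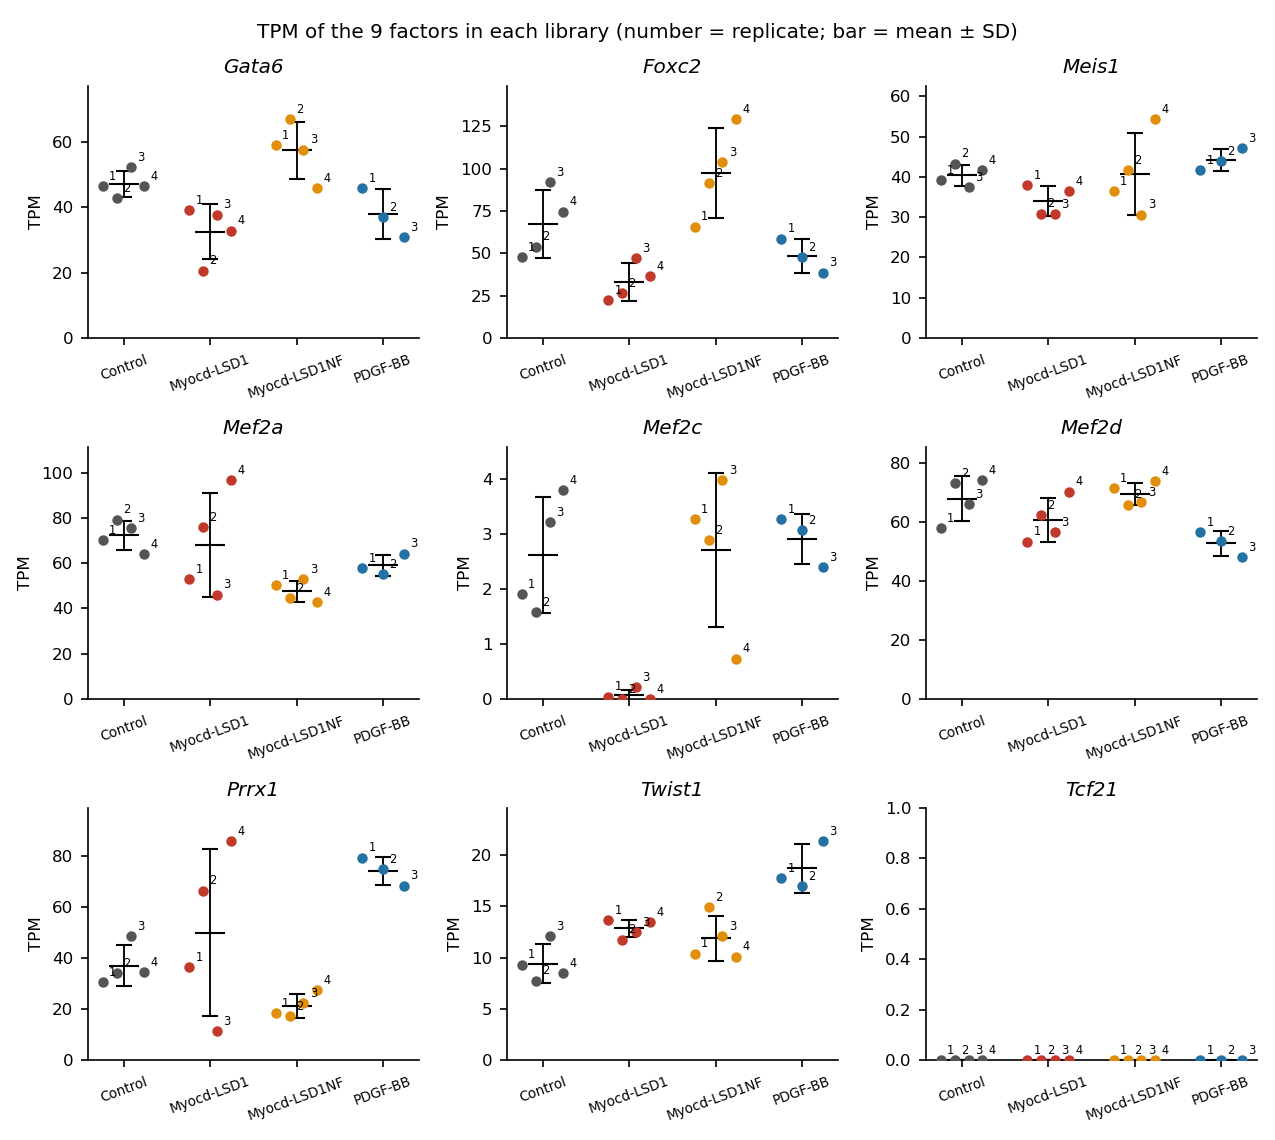
TPM of the 9 factors in each library (y axis, linear, from 0) for Control, Myocd-LSD1, Myocd-LSD1NF and PDGF-BB; each dot is a library with its replicate number, and bars are the mean ± SD. Mef2c lies at or near 0 in all 4 Myocd-LSD1 libraries, Twist1 and Prrx1 are highest in mean in PDGF-BB, and Tcf21 is at 0 in all 15 libraries.

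In Myocd-LSD1 cells Mef2c, Foxc2 and Gata6 fell and Twist1 rose against control. Of the 8 factors tested 3 were called lower, where 15.4% of all tested genes were called lower, and 1 was called higher, where 16.9% of all genes were. The median log2 fold change of the 8 was -0.20, against 0.03 over all genes tested. In Myocd-LSD1NF cells none of the 8 was called by limma against control, with 0.475% of all genes called higher and 1.74% called lower. At an unadjusted p under 0.05 the count was 2, Mef2a lower and Twist1 higher. With PDGF-BB Twist1 rose and Mef2d fell, so 1 of 8 was called higher (19.2% of all genes) and 1 lower (8.5% of all genes). Set against Myocd-LSD1NF, Myocd-LSD1 again had Mef2c, Foxc2 and Gata6 lower, 3 of 8 called lower (12.7% of all genes) and 0 called higher (19.1% of all genes). Set against PDGF-BB, Myocd-LSD1 had Mef2c and Twist1 lower, 2 of 8 called lower (20.5% of all genes) and 0 higher (10.6% of all genes). With so few genes these shares describe the 8 factors and set them apart from no other list. The comparisons share libraries: the same 4 controls enter 3 of them, and the same 4 Myocd-LSD1 libraries enter 3.

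The balance of calls over all genes depended on scaling. The median of all genes against control was 0.12 with PDGF-BB in the deposited TPM and -0.01 after median-of-ratios scaling, and the split of 2347 higher and 1037 lower became 1683 and 1746. For Myocd-LSD1 against control 2062 higher and 1874 lower became 2082 and 2149. For Myocd-LSD1NF against control 58 higher and 212 lower became 109 and 207. For Myocd-LSD1 against Myocd-LSD1NF 2331 and 1546 became 2045 and 2135, and against PDGF-BB 1295 and 2497 became 1911 and 2008. Against PDGF-BB the median of all genes moved from -0.10 to 0.00. Under that scaling Twist1 was still called higher with PDGF-BB, by 0.79 (adjusted p = 0.00252), and Mef2d lower, by -0.50 (adjusted p = 0.015).

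**Figure D2:**
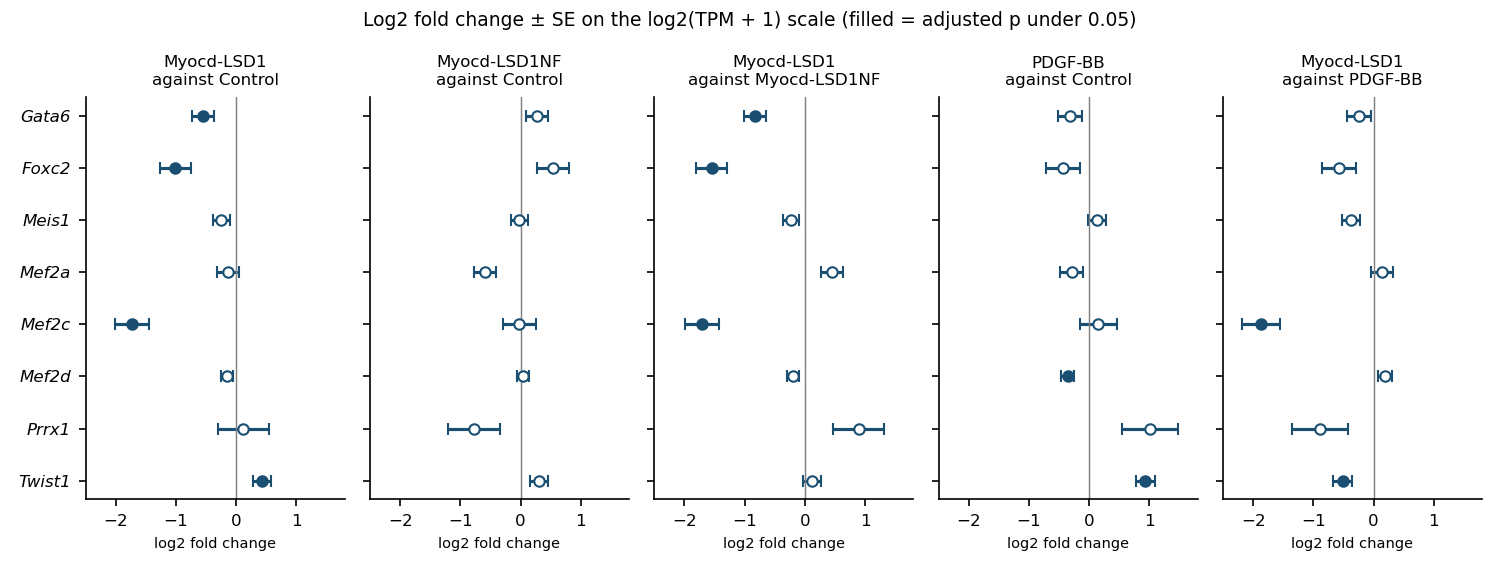
Log2 fold change (x axis, log2(TPM + 1) scale, first group minus second) of the 8 tested factors in 5 comparisons, 1 panel each; bars are the standard error from limma, filled circles have an adjusted p under 0.05. Mef2c is lower in Myocd-LSD1 against each of the other groups, and no circle is filled for Myocd-LSD1NF against control.

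Mef2c, the family member tied to myocardin expression in the mouse heart, fell to near 0 in Myocd-LSD1. Its TPM in the control libraries 1 to 4 were 1.91, 1.57, 3.21 and 3.79. In the Myocd-LSD1 libraries they were 0.04, 0, 0.21 and 0. Every Myocd-LSD1 library therefore lay under every control. The Myocd-LSD1NF libraries held 3.26, 2.88, 3.98 and 0.73 TPM and the PDGF-BB libraries 3.26, 3.06 and 2.39 TPM. Both groups overlapped the controls, and even Myocd-LSD1NF library 4, the lowest of them, exceeded every Myocd-LSD1 library. The log2 fold change in Myocd-LSD1 was -1.73 ± 0.28 against control (SE, adjusted p = 0.000271). It was -1.71 ± 0.28 against Myocd-LSD1NF (adjusted p = 0.000373) and -1.87 ± 0.31 against PDGF-BB (adjusted p = 0.000381). At this level the size rests on the pseudocount: the value against control was -4.15 with a pseudocount of 0.1 and -0.58 with one of 5. The call held in all 24 alternatives that gave a value, including each left-out library. Against control Mef2c gave -0.02 ± 0.28 in Myocd-LSD1NF (adjusted p = 0.985) and 0.15 ± 0.31 with PDGF-BB (adjusted p = 0.755). Myocd was near 0 in the same libraries, at 0.310 ± 0.186 TPM in Myocd-LSD1 against 27.8 ± 1.96 in control. With PDGF-BB Myocd was at 19.7 ± 4.34 TPM and in Myocd-LSD1NF at 34.6 ± 13.7 TPM.

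Mef2a and Mef2d, the broadly expressed family members, made up nearly all MEF2 transcripts in every group. The summed TPM of the 3 genes was 142.7 ± 9.83 in control, 128.6 ± 30.2 in Myocd-LSD1, 119.8 ± 5.43 in Myocd-LSD1NF and 114.6 ± 2.93 with PDGF-BB. The share of Mef2c in that sum was 1.84% ± 0.739 in control and ran from 0% to 0.204% over the Myocd-LSD1 libraries. It was 2.25% ± 1.13 in Myocd-LSD1NF and 2.53% ± 0.391 with PDGF-BB. So the fall of Mef2c in Myocd-LSD1 removed little of the family's total transcript level.

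Mef2d fell with PDGF-BB. Its control libraries held 57.92, 73.25, 66.0 and 74.24 TPM and its PDGF-BB libraries 56.46, 53.48 and 48.11 TPM. The groups did not overlap, although PDGF-BB library 1 and control library 1 nearly met. This gave a log2 fold change of -0.36 ± 0.11 (adjusted p = 0.0282). The call was lost without control library 2 (adjusted p = 0.0715), 3 (0.05) or 4 (0.0721) and without PDGF-BB library 2 (0.0666) or 3 (0.121). Mef2d in the Myocd-LSD1 libraries ran from 53.34 to 70.29 TPM and in the Myocd-LSD1NF libraries from 65.87 to 73.78 TPM, both overlapping the controls. Against control neither was called (-0.16 ± 0.10, adjusted p = 0.262, and 0.04 ± 0.10, adjusted p = 0.904). In Myocd-LSD1 against Myocd-LSD1NF Mef2d gave -0.20 ± 0.10 (adjusted p = 0.155), and without Myocd-LSD1 libraries 2 and 4 together it was called lower, at -0.33 (adjusted p = 0.0493).

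Mef2a was lowest in Myocd-LSD1NF. The control libraries held 70.29, 79.18, 75.43 and 64.13 TPM and the Myocd-LSD1NF libraries 50.13, 44.57, 52.87 and 42.86 TPM. All 4 Myocd-LSD1NF libraries lay under all 4 controls, and also under all 3 PDGF-BB libraries (57.73, 55.05 and 64.23 TPM). Against control the log2 fold change was -0.59 ± 0.18, with an adjusted p of 0.107, so it did not pass the test. It passed with library weights (adjusted p = 0.0195), when the compared groups were fitted alone (0.0224) and without Myocd-LSD1 library 4 (0.0366), a library of neither group that enters the shared spread. The ratio of Mef2a to Mef2d TPM was 0.581 to 0.791 in Myocd-LSD1NF, under the lowest ratio of each other group (0.864 in control, 0.816 in Myocd-LSD1 and 1.022 with PDGF-BB). With PDGF-BB Mef2a gave -0.29 ± 0.19 against control (adjusted p = 0.282).

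Myocd-LSD1 libraries disagreed on Mef2a, at 52.98, 75.78, 46.13 and 96.79 TPM for libraries 1 to 4. Libraries 1 and 3 lay under every control, library 2 lay inside their range and library 4 above it. The log2 fold change against control was -0.14 ± 0.18 (adjusted p = 0.586). It was -0.53 without libraries 2 and 4 together (adjusted p = 0.006). Against Myocd-LSD1NF it was 0.45 ± 0.18 (adjusted p = 0.0674), and it was called higher without Myocd-LSD1 library 1 (0.55, adjusted p = 0.0426) or 3 (0.61, adjusted p = 0.00975).

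Prrx1, the paired-related homeobox factor of limb and craniofacial mesenchyme, varied most among the Myocd-LSD1 libraries. These held 36.36, 66.5, 11.28 and 86.07 TPM, against 30.54, 34.04, 48.68 and 34.54 TPM in the controls. Library 1 lay among the controls, libraries 2 and 4 above all of them and library 3 below all of them. Against control the log2 fold change was 0.12 ± 0.43 (adjusted p = 0.868). It turned to 0.69 without library 3 (adjusted p = 0.0442), to -0.13 without library 2, to -0.25 without library 4 and to -0.80 without libraries 2 and 4 together (adjusted p = 0.102). No single level therefore describes Prrx1 in that line. Over all tested genes libraries 2 and 4 also correlated best with each other (r = 0.987), then libraries 1 and 3 (r = 0.981), while other pairs of that line ran from 0.961 to 0.978. This ordering over genes is a description, and no label explains it.

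**Figure D3:**
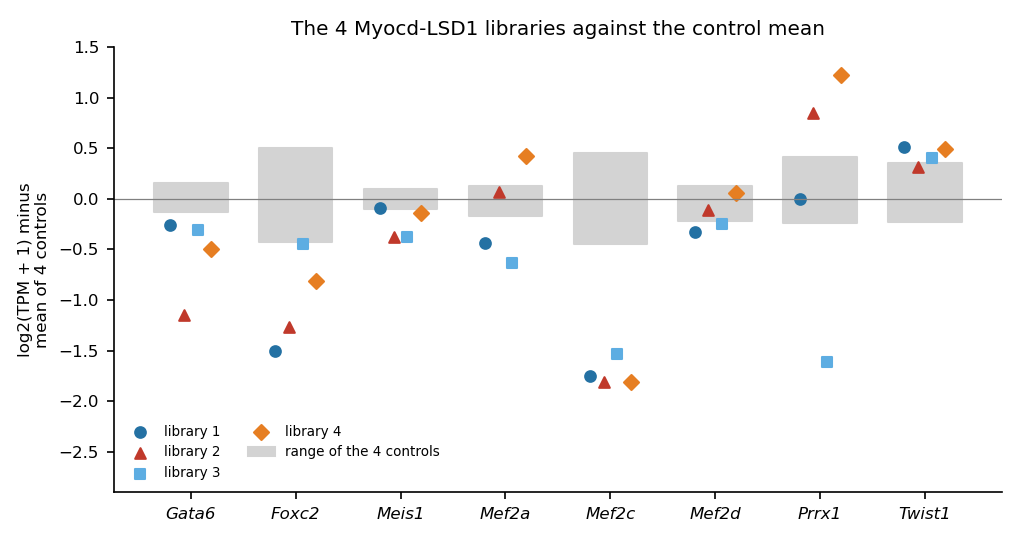
Each Myocd-LSD1 library's log2(TPM + 1) minus the mean of the 4 controls (y axis) for the 8 tested factors; symbols mark libraries 1 to 4 and grey bars span the 4 controls. The 4 libraries agree closely for Mef2c and Twist1, while for Prrx1 they run from -1.61 (library 3) to 1.22 (library 4).

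Prrx1 was highest with PDGF-BB, at 79.52, 74.84 and 68.46 TPM in the 3 libraries. All 3 lay above every control, with means of 74.3 ± 5.55 against 37.0 ± 8.02 TPM. On the log2 scale the difference was 1.01 ± 0.46, which was not called (adjusted p = 0.118). The standard error is pooled over all 4 groups, the uneven Myocd-LSD1 libraries included. With the control and PDGF-BB libraries fitted alone the value was 1.01 ± 0.15 and called (adjusted p = 0.00177), and without Myocd-LSD1 library 3 it was 1.01 ± 0.24 and called (adjusted p = 0.00794). Library weights also gave a call (adjusted p = 0.00886). In Myocd-LSD1NF Prrx1 stood at 18.34, 17.09, 22.2 and 27.44 TPM, under every control. The value against control was -0.77 ± 0.43 (adjusted p = 0.418), and none of 24 alternatives called it. Myocd-LSD1 against Myocd-LSD1NF gave 0.89 ± 0.43 (adjusted p = 0.129), which was called without Myocd-LSD1 library 3 (1.46, adjusted p = 0.000467) and was -0.03 without libraries 2 and 4 together (adjusted p = 0.955). Myocd-LSD1 against PDGF-BB gave -0.89 ± 0.46 (adjusted p = 0.161), which was called without Myocd-LSD1 library 4 (-1.26, adjusted p = 0.0443) and without libraries 2 and 4 together (-1.81, adjusted p = 0.00351).

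The promoters of Mef2a and Prrx1 are shown because within the Myocd-LSD1 line both genes were highest in libraries 2 and 4, and because, among the 7 of 9 factors with a promoter in the RefSeq table, these were the ones that hold a MEF2 site. The library pattern is not particular to them. Mef2d was also highest in libraries 2 and 4 (62.33 and 70.29 TPM, against 53.34 and 56.51 in libraries 1 and 3). Its promoter holds no MEF2 site. The sequences are from RefSeq on GRCr8, run from 250 bases before to 50 bases after the gene start, and are written 5′ to 3′ on the gene's strand with the MEF2 site in capitals.
Mef2a, chr1:130392113-130392412, minus strand: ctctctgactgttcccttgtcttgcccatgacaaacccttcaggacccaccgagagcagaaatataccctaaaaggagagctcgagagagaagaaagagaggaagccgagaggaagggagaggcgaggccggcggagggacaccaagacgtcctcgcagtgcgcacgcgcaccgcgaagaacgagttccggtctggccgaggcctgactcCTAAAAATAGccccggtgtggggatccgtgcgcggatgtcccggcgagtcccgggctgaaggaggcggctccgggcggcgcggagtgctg
Prrx1, chr13:78204024-78204323, minus strand: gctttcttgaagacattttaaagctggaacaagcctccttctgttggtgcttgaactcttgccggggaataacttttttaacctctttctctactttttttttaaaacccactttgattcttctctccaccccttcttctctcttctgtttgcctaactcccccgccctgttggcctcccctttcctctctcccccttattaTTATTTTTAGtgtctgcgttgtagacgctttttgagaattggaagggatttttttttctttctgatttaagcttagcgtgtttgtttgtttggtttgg
The MEF2 site of Mef2a, CTAAAAATAG, lies 30 bases before the start, and that of Prrx1, TTATTTTTAG, 38 bases before it. Of 33469 rat promoters of the same length 3.29% hold a MEF2 site on either strand. An E-box (CANNTG), the kind of site bound by TWIST1 and TCF21, was in 72.1% of all promoters and in 0 of these 7. GATAA was in 26.5% of all promoters and, among the 7, in that of Tcf21. TGACAG, a MEIS core, was in 19.0% of all promoters and in that of Gata6, and the CArG box of serum response factor was in 1.64% and in 0 of the 7. A match is a description of letters in this window, not a bound site.

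Foxc2 fell in Myocd-LSD1 against both control and Myocd-LSD1NF. The control libraries held 47.93, 53.98, 92.24 and 74.55 TPM and the Myocd-LSD1 libraries 22.26, 26.32, 47.23 and 36.66 TPM. The groups did not overlap, although Myocd-LSD1 library 3 and control library 1 nearly met. The log2 fold change was -1.01 ± 0.26 (adjusted p = 0.00751) and was called in all 25 alternatives, with adjusted p from 0.00258 to 0.0463. Myocd-LSD1NF libraries ranged higher, at 65.79, 91.26, 103.98 and 129.4 TPM, each above every Myocd-LSD1 library. Against Myocd-LSD1NF the value in Myocd-LSD1 was -1.55 ± 0.26 (adjusted p = 0.000385), also called in all 25 alternatives. Myocd-LSD1NF against control gave 0.54 ± 0.26 with overlapping groups and no call (adjusted p = 0.332). The PDGF-BB libraries held 58.61, 47.66 and 38.52 TPM, overlapping both control and Myocd-LSD1. Against control PDGF-BB gave -0.44 ± 0.28 (adjusted p = 0.256). Myocd-LSD1 against PDGF-BB gave -0.57 ± 0.28 (adjusted p = 0.141), which was called without Myocd-LSD1 library 3 (-0.75, adjusted p = 0.0497).

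Gata6 had the same order of group means as Foxc2, with Myocd-LSD1NF highest, then control, PDGF-BB and Myocd-LSD1. Neighbouring groups in this order overlapped for both genes. It fell in Myocd-LSD1 against control and against Myocd-LSD1NF. Its control libraries held 46.38, 42.76, 52.31 and 46.54 TPM and its Myocd-LSD1 libraries 39.1, 20.56, 37.71 and 32.86 TPM. Library 2 was the lowest of the 15. That gave a log2 fold change of -0.55 ± 0.18 (adjusted p = 0.0297). That call was lost without Myocd-LSD1 library 2 (-0.35, adjusted p = 0.0881) and without control library 1 (0.0574), 3 (0.0806) or 4 (0.0518). Leaving out Myocd-LSD1 libraries 2 and 4 together gave -0.28 (adjusted p = 0.234). Against Myocd-LSD1NF, whose libraries held 59.02, 67.06, 57.66 and 45.93 TPM, the fall was -0.83 ± 0.18 (adjusted p = 0.00295) and was called in all 25 alternatives. Myocd-LSD1NF against control gave 0.27 ± 0.18 (adjusted p = 0.509). PDGF-BB libraries held 45.9, 37.04 and 30.75 TPM, overlapping control and Myocd-LSD1, and gave -0.32 ± 0.20 against control (adjusted p = 0.243).

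Meis1, the TALE homeodomain cofactor of HOX proteins, was called in none of the 5 comparisons, with group means from 34.0 ± 3.75 TPM in Myocd-LSD1 to 44.2 ± 2.72 TPM with PDGF-BB. Control libraries ran from 37.46 to 43.32 TPM and Myocd-LSD1NF libraries from 30.63 to 54.43 TPM. The ranges of these groups overlapped. Against control it gave -0.25 ± 0.14 in Myocd-LSD1 (adjusted p = 0.203), -0.02 ± 0.14 in Myocd-LSD1NF (adjusted p = 0.977) and 0.13 ± 0.15 with PDGF-BB (adjusted p = 0.566). The Myocd-LSD1 libraries (37.93, 30.87, 30.71 and 36.47 TPM) all lay under the PDGF-BB libraries (41.67, 43.95 and 47.08 TPM). That difference was -0.37 ± 0.15 (adjusted p = 0.0733). It was called without Myocd-LSD1NF library 3 (adjusted p = 0.039) or 4 (0.0238), with the compared groups alone (0.047), with library weights (0.0116) and with the replicate number as a block (-0.44, adjusted p = 0.0302).

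Twist1 rose with PDGF-BB. The 3 treated libraries held 17.75, 16.95 and 21.39 TPM and the controls 9.3, 7.74, 12.06 and 8.45 TPM. All treated libraries exceeded every library of the other groups. The mean was 18.7 ± 2.37 against 9.39 ± 1.89 TPM, a ratio of 1.99, and the log2 fold change was 0.93 ± 0.16 (adjusted p = 0.00071), called in all 24 alternatives. In Myocd-LSD1 the libraries held 13.64, 11.75, 12.51 and 13.43 TPM. Library 2 lay under control library 3, so the groups overlapped. The log2 fold change of 0.43 ± 0.15 was called at an adjusted p of 0.035, and 16 of 25 alternatives kept the call. It was lost without control library 1 (0.0681), 2 (0.108) or 4 (0.0824) and without Myocd-LSD1 library 1 (0.0778), 3 (0.0521) or 4 (0.077). It was lost too without Myocd-LSD1 libraries 2 and 4 together (0.0982), with quantile normalization (0.0678) and with the compared groups alone (0.0508). Myocd-LSD1NF libraries held 10.37, 14.89, 12.12 and 10.09 TPM and gave 0.31 ± 0.15 against control (adjusted p = 0.318).

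The 2 rises of Twist1 differed in size. Myocd-LSD1 against PDGF-BB gave -0.51 ± 0.16 (adjusted p = 0.0239), with no overlap. That call was lost after median-of-ratios scaling (-0.39, adjusted p = 0.0744), after quantile normalization (-0.43, adjusted p = 0.0635), without Myocd-LSD1 library 2 (0.0636), without PDGF-BB library 3 (0.111) and without Myocd-LSD1 libraries 2 and 4 together (0.117). Myocd-LSD1 and Myocd-LSD1NF were not separated at Twist1 (0.12 ± 0.15, adjusted p = 0.571).

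Tcf21 was listed at 0 TPM in all 15 libraries, so no fold change or test exists for it. It is the only one of the 9 factors read as not expressed in any group at the depth of these libraries, which is unknown. Mef2c came closest, at 0 in 2 Myocd-LSD1 libraries and at 1 TPM or more in 10 of 15 libraries.

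The 7 lists of related genes hold factors and regulators other than the 9, and 91 of their genes were tested. The lists were taken from general knowledge with earlier results of these data known. Their shares are therefore a description and no independent test. In Myocd-LSD1 against control 36 of the 91 (39.6%) were called higher and 14 (15.4%) lower, next to 16.9% and 15.4% of all tested genes. In Myocd-LSD1NF 1 (1.1%) was higher and 2 (2.2%) lower, next to 0.475% and 1.74% of all genes. With PDGF-BB 19 (20.9%) were higher and 8 (8.79%) lower, next to 19.2% and 8.5% of all genes.

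**Figure D4:**
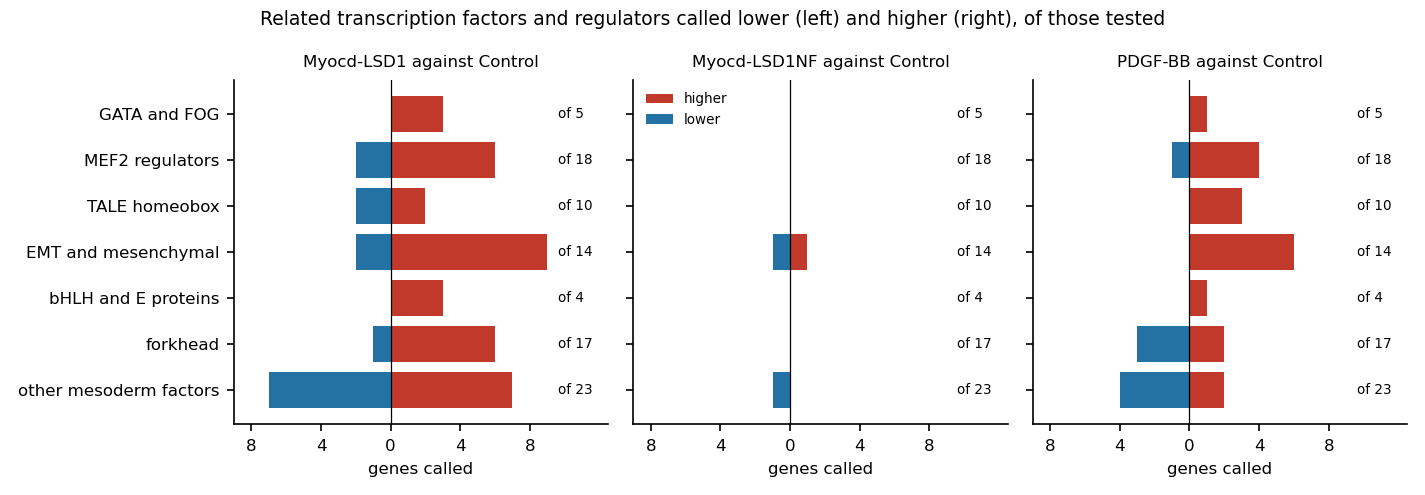
Number of genes called lower (left of 0, blue) and higher (right of 0, red) in 7 lists of related factors (y axis) for Myocd-LSD1, Myocd-LSD1NF and PDGF-BB, each against control; the number tested stands beside each bar. The EMT and mesenchymal list shows 9 higher and 2 lower of 14 in Myocd-LSD1, and 6 higher and 0 lower with PDGF-BB. Of all tested genes 16.9% were called higher and 15.4% lower in Myocd-LSD1, and 19.2% and 8.5% with PDGF-BB.

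Among EMT and mesenchymal factors 9 of 14 tested rose and 2 fell in Myocd-LSD1, next to 16.9% and 15.4% of all tested genes. The list median was 0.98 against 0.03 over all genes. Snai2, the zinc finger repressor known as Slug, went from 12.2 ± 3.03 TPM in control to 85.4 ± 31.3 in Myocd-LSD1 (log2 fold change 2.66 ± 0.31, adjusted p = 1.16e-05). The markers Msln, Lrrn4 and Krt8 were higher in the same libraries, and Krt8 also with PDGF-BB, as given above. The part of these markers in the changes of this list and of the other mesoderm factors was not tested. Msx1, a homeobox repressor, went from 10.6 ± 2.72 to 40.2 ± 14.6 TPM (1.78 ± 0.28, adjusted p = 0.000179). Its relative Msx2 moved the other way, listed at 0 in all 4 Myocd-LSD1 libraries against 1.91 ± 0.577 TPM in control (adjusted p = 2.77e-06). Msx2 passed the filter only through control and PDGF-BB libraries, and values at the floor show no spread. The size of its fall rests on the settings, from -4.29 to -0.46 over the alternatives. Zeb2, another EMT repressor of E-cadherin, fell from 12.3 ± 2.53 to 5.56 ± 1.19 TPM (-1.02 ± 0.20, adjusted p = 0.00101). With PDGF-BB 6 of the 14 rose and 0 were called lower by limma, next to 19.2% and 8.5% of all genes. The median was 0.19 against 0.12. Snai2 reached 62.2 ± 22.3 TPM (2.23 ± 0.33, adjusted p = 0.000288). Hmga2, a chromatin protein of mesenchymal growth, went from 0.573 ± 0.390 to 6.45 ± 2.13 TPM (2.24 ± 0.34, adjusted p = 0.000318).

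Several relatives and partners of GATA6, MEIS1 and TWIST1 changed in Myocd-LSD1. Of all tested genes 16.9% were called higher and 15.4% lower in Myocd-LSD1 against control. Of 5 GATA and FOG genes 3 rose in Myocd-LSD1 and 0 were called lower, with a median of 0.87 against 0.03. Zfpm1, the GATA cofactor FOG1, went from 10.6 ± 1.96 to 22.4 ± 3.42 TPM (1.02 ± 0.18, adjusted p = 0.000404), and Gata3 from 1.71 ± 0.782 to 5.52 ± 1.13 TPM (1.30 ± 0.32, adjusted p = 0.00547), while Gata6 fell. Of 10 TALE genes 2 rose and 2 fell in Myocd-LSD1, near the shares over all genes, with a median of 0.07. Meis2 rose from 17.9 ± 1.49 to 34.9 ± 4.45 TPM (0.92 ± 0.12, adjusted p = 3.61e-05) and Meis3 fell from 10.8 ± 2.25 to 3.26 ± 1.29 TPM (-1.51 ± 0.20, adjusted p = 4.19e-05). Meis1, the third of these paralogs, was not called. With PDGF-BB 3 of the 10 TALE genes rose, where 19.2% of all genes were called higher. Meis2 was among them at 29.7 ± 2.63 TPM (0.70 ± 0.13, adjusted p = 0.00138). Of 4 tested bHLH genes 3 rose in Myocd-LSD1, with a median of 0.62. Tcf12, an E protein that pairs with TWIST1, went from 34.8 ± 7.37 to 62.2 ± 8.64 TPM (0.83 ± 0.14, adjusted p = 0.000436). The other 9 genes of that list, Hand1 and Hand2 among them, did not pass the filter on low values.

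Of 18 genes that regulate MEF2 proteins 6 rose and 2 fell in Myocd-LSD1, with a median of 0.11. Of all tested genes 16.9% were called higher and 15.4% lower. Ppp3ca, a catalytic subunit of calcineurin, rose from 20.7 ± 3.43 to 36.9 ± 3.44 TPM (0.81 ± 0.12, adjusted p = 0.00012). Ppp3cb, another catalytic subunit of higher level, fell from 57.1 ± 3.62 to 45.5 ± 1.92 TPM (-0.32 ± 0.09, adjusted p = 0.0109). That call was lost without Myocd-LSD1 libraries 2 and 4 together (adjusted p = 0.0834). Cabin1, which holds MEF2 in check, rose from 16.9 ± 0.547 to 29.9 ± 4.54 TPM (0.77 ± 0.13, adjusted p = 0.000377). Camk2g, a calcium/calmodulin-dependent kinase, fell from 29.0 ± 1.05 to 15.4 ± 3.02 TPM (-0.89 ± 0.17, adjusted p = 0.000733). With PDGF-BB 4 of the 18 rose and 1 fell, next to 19.2% and 8.5% of all genes, with a median of 0.03 against 0.12. The gene that fell was Rcan1, a calcineurin inhibitor that is itself induced by calcineurin, from 82.9 ± 41.6 to 20.7 ± 4.35 TPM (-1.86 ± 0.34, adjusted p = 0.00138). Members of the list that activate and that restrain MEF2 were among those called.

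Of 17 forkhead genes 6 rose and 1 fell in Myocd-LSD1 (median 0.07), and 2 rose and 3 fell with PDGF-BB (median -0.18). Of all tested genes 16.9% were called higher and 15.4% lower in Myocd-LSD1, and 19.2% and 8.5% with PDGF-BB. Foxo3, a factor restrained by AKT, rose in Myocd-LSD1 from 7.58 ± 1.73 to 15.2 ± 4.0 TPM (0.91 ± 0.19, adjusted p = 0.00213). Foxm1, a driver of mitotic genes, rose with PDGF-BB from 7.98 ± 1.73 to 20.6 ± 1.22 TPM (1.28 ± 0.33, adjusted p = 0.011). Among those that fell with PDGF-BB, Foxc1 went from 23.4 ± 4.06 to 12.3 ± 3.50 TPM (-0.89 ± 0.30, adjusted p = 0.0401). Foxs1 went from 80.55 ± 20.1 to 48.4 ± 15.3 TPM (-0.73 ± 0.24, adjusted p = 0.0328). Of 24 alternatives 18 kept the call of Foxc1 and 19 that of Foxs1. Of 23 other mesoderm factors 7 rose and 7 fell in Myocd-LSD1 (median -0.01), and 2 rose and 4 fell with PDGF-BB (median -0.01). Six2, a homeobox factor of the outflow tract and kidney, fell in Myocd-LSD1 from 11.3 ± 1.42 to 0.565 ± 0.565 TPM (-3.03 ± 0.27, adjusted p = 1.14e-06). Its coactivator Eya1 rose from 5.28 ± 1.32 to 24.3 ± 6.61 TPM (1.99 ± 0.23, adjusted p = 1.43e-05). Fli1, an ETS factor of endothelial and blood cells, rose in Myocd-LSD1 from 1.5 ± 0.628 to 9.32 ± 1.95 TPM (2.06 ± 0.26, adjusted p = 3.18e-05). The related endothelial factor Erg fell with PDGF-BB from 4.65 ± 1.78 to 0.363 ± 0.210 TPM (-2.0 ± 0.38, adjusted p = 0.00169). In Myocd-LSD1 Erg was low too, at 0.39 to 1.39 TPM against 2.56 to 6.29 in control, opposite to Fli1. In Myocd-LSD1NF it ran from 0.48 to 4.97 TPM.

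Myocd-LSD1NF changed few of these genes. Eya1 fell against control to 0.933 ± 0.450 TPM (-1.71 ± 0.23, adjusted p = 0.001), opposite to its rise in Myocd-LSD1, and the direct comparison of the lines gave 3.69 ± 0.23 (adjusted p = 3.3e-08). Msx2 fell to 0.0725 ± 0.0690 TPM (-1.42 ± 0.15, adjusted p = 0.000117), again near the floor, with a size from -3.59 to -0.44 over the alternatives. Runx1, a Runt factor of blood and mesenchyme, rose from 13.1 ± 3.92 to 25.9 ± 5.98 TPM (0.94 ± 0.18, adjusted p = 0.0132), a call lost without control library 1 (0.0546) or 2 (0.0552) and with the compared groups alone (0.0792). Between the lines 28 of the 91 genes (30.8%) were higher in Myocd-LSD1 and 14 (15.4%) lower, next to 19.1% and 12.7% of all genes. Between Myocd-LSD1 and PDGF-BB 25 (27.5%) were higher and 14 (15.4%) lower, next to 10.6% and 20.5% of all genes.

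For each factor called in some comparison the 3 genes of most similar pattern were found by the root mean square difference of centred log2(TPM + 1) over the 15 libraries. Only tested genes with a plain gene symbol and a mean of at least 5 TPM over all libraries were searched. For Mef2c these were Synpo (0.37), Gab2 (0.38) and Pth1r (0.38), where Mef2c itself varied by 0.86 about its mean. Synpo stood at 50.1 TPM in Myocd-LSD1 and 160.1 in control, a far higher level than that of Mef2c. Mef2c itself was under the limit on the mean, so genes of its level were not searched. On this scale its fall is also understated. For Foxc2 they were Sipa1l2 (0.34), Nrep (0.38) and Kank1 (0.38), against 0.68 for Foxc2 itself. Man1a1, Ssbp2 and Trappc2 each differed from Gata6 by 0.19, against 0.40. Tmem120a (0.15), Nsmce1 (0.17) and Arpc1b (0.17) were nearest to Twist1, against 0.36, and Optn (0.12), Map3k10 (0.13) and Cacnb3 (0.13) to Mef2d, against 0.19.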

How the data were processed

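RNA from rat aortic SMC had been prepared with an RNeasy kit and DNase I and made into polyA libraries with a TruSeq Stranded mRNA kit, per the labels' protocols. The authors deposited TPM, 1 column per library for 15 libraries and 32623 entries. Aligner, counter, build and annotation: not given in the sources used here. Group means, in 4 further columns, were not used. TPM keep no sequencing depth, so precision rests on the libraries alone, and whether reads of an antisense neighbour entered a value is not known.

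Entries with at least 1 TPM in at least 3 libraries (12207) were tested on log2(TPM + 1) with limma 3.58.1 in R 4.3.3 (1 mean per group, eBayes with trend, two-sided, Benjamini-Hochberg over all entries tested). The 20416 other entries were left out. The procedure was tested on simulated data. Tables, plots and the motif search used numpy 2.4.6, pandas 2.3.3 and matplotlib 3.10.9 under Python 3.11.15.

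The 9 factors, the lists and the alternatives were chosen with earlier results of these data known. From each list the rule named up to 2 called genes in each direction per comparison, largest change first. Not all of them are reported here, and 1 leukocyte marker of the list is not reported here. The alternatives changed the pseudocount (0.1 or 5), the filter (none, or a mean TPM of at least 5), the scaling (median of ratios, or quantile) or the model (replicate block, limma array weights for libraries, compared groups alone). Others left out each library in turn, or Myocd-LSD1 libraries 2 and 4 together. Running these for the list genes was added after seeing the data.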

Additional observations from a re-analysis of the deposited data

How the results depend on the processing

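For the 8 tested factors 906 of 979 recomputed fold changes kept their direction and their side of the threshold, 24 lost a call, 25 gained one and 24 changed sign. The number of factors called, in either direction, was 4 in Myocd-LSD1 against control, 0 in Myocd-LSD1NF against control, 3 between the lines, 2 with PDGF-BB against control and 2 in Myocd-LSD1 against PDGF-BB. Leaving out each library in turn gave 2 to 4, 0 to 1, 3 to 5, 1 to 3 and 1 to 3. Library weights gave 1 in Myocd-LSD1NF against control, 5 between the lines and 6 in Myocd-LSD1 against PDGF-BB. The compared groups alone gave 1 in Myocd-LSD1NF against control. In Myocd-LSD1 against PDGF-BB median-of-ratios scaling, quantile normalization and the stricter filter (mean of 5 TPM) each gave 1. Mef2c has no value under that filter.

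Signs turned mainly for values near 0. Against control in Myocd-LSD1, Mef2a was 0.05 with library weights (-0.33 to 0.02 with a library left out), and Prrx1 was -0.80 without libraries 2 and 4 (-0.25 to 0.69). In Myocd-LSD1NF against control, Mef2c was 0.01 with a pseudocount of 5, 0.02 with median-of-ratios scaling, 0.13 with quantile normalization and 0.26 with library weights (-0.20 to 0.31), Mef2d ran from -0.03 to 0.08, and Meis1 was 0.04 with median-of-ratios scaling (-0.16 to 0.11). Between the lines Prrx1 was -0.03 without Myocd-LSD1 libraries 2 and 4, and Twist1 was -0.0047 with quantile normalization. With PDGF-BB against control Meis1 was -0.02 with median-of-ratios scaling, and Mef2c ran from -0.00042 to 0.30. In Myocd-LSD1 against PDGF-BB without libraries 2 and 4, Gata6 was 0.04 and Mef2a -0.25 (-0.05 to 0.31). The cause was not tested.

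Of 21 pairs of libraries with the same replicate number in different groups, 10 had deviations that correlated above 0.1, over a range of -0.225 to 0.576. Pairs with different numbers were not set beside them, so these values cannot decide whether the numbers pair the samples. The numbers are not known to pair samples, and the main model did not use them. With the replicate block the counts of called factors were 4, 0, 3, 2 and 3 in the order above. Depth is unknown, so how far it limits Mef2c and Tcf21 cannot be given. A comparison of MEF2 protein sequences was not run.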
